A study of Mus musculus with 14 samples.

Results

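The AP-1 and immediate early factors followed here were 10 genes, Fos, Fosb, Fosl1, Fosl2, Jun, Junb, Atf3, Egr1, Egr2 and Egr3, of the 18194 genes that had at least 1 probe set assigned to them alone. The probe sets were taken by gene symbol, 15 in all, and the list of genes itself was drawn up with earlier results of these data known. Corneal RNA was hybridised to 14 Affymetrix arrays to ask how gene expression differs without Klf5, a zinc finger transcription factor of the Kruppel-like family, before the eyelids open (postnatal day 11, PN11) and in the young adult (postnatal day 56, PN56). The groups were 3 WT and 3 Klf5CN mice at PN11 and 4 of each at PN56, all of mixed background, and the RNA of both corneas of a mouse was pooled on 1 array. Klf5CN mice were Klf5 loxP/loxP with 1 copy of the Le-Cre transgene (Le-Cre/-), in which a Pax6 enhancer and promoter express Cre in the surface ectoderm that gives rise to the lens and to the epithelia of the cornea, conjunctiva and lids. WT mice were Klf5 loxP/loxP littermates without Cre. Both genotypes therefore carried the floxed alleles, and the transgene itself cannot be told apart from the loss of Klf5. Values are array signals on a linear scale, each array having been scaled to a trimmed mean of 150, and differences are log2 differences of group means with the standard error (SE), with signals under 10 set to 10 (log2 3.32). A gene counted as changed when limma's two-sided test gave an adjusted p under 0.05 and the group means differed by more than 2-fold, and a gene with several tested probe sets was read by the brightest.

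The deletion was checked on the 3 Klf5 probe sets. That of largest loss ran from 480.3 to 593.8 in PN11 WT and from 12.7 to 18.2 in PN11 Klf5CN, and from 961.1 to 1510.5 and from 6.9 to 70.3 at PN56. A further set ran from 1162.4 to 1361.5 and from 103.3 to 141.7 at PN11, and from 1129.3 to 1313.3 and from 20.4 to 86.9 at PN56. The brightest by mean log2 over all arrays changed less, from 268.7 to 364.7 against 133.1 to 223.4 at PN11, and at PN56, with the genotypes overlapping, from 595.9 to 869.9 against 412.1 to 770.9. The 11 markers of corneal epithelium summed to between 44930 and 97210 on all 14 arrays, and none of them was under 10 in all arrays of a group. The top sum was that of PN56 Klf5CN replicate 4, and the next was 68490. Of the arrays, 2 stood apart by RNA quality. The log2 ratio of the 3′ to the 5′ Actb control was 1.62 on PN11 Klf5CN replicate 3 and 1.4 on PN56 Klf5CN replicate 4, against 0.23 to 0.47 on the other 12 arrays. The same ratio for Gapdh set them further apart, at 6.18 on the former and 0.65 on the latter, against -0.54 to -0.24 on the other 12. For the 10 factors, read by their brightest probe sets, the main results whose call, direction or size turned on either array are given with and without it. For genes of the other lists, and for the dimmer probe sets, no log2 differences without these arrays are given. White blood cell RNA also differed with genotype. The 12 leukocyte markers summed to between 2279 and 2927 in PN11 WT and 6989 and 10690 in PN11 Klf5CN, and to between 840.5 and 1668 and 2498 and 7381 at PN56. Of these 12 markers, 8 were higher in Klf5CN at PN11 and 10 at PN56. The 6 tested neutrophil markers summed to 193.2 to 335.5 against 2438 to 4208 at PN11 and 140.1 to 1025 against 2038 to 8096 at PN56. Among other cell types, 6 conjunctival markers summed to 5391 to 6649 in PN11 WT, 10830 to 12660 in PN11 Klf5CN, 3624 to 5784 in PN56 WT and 6521 to 12810 in PN56 Klf5CN. That list was mixed at PN11, with Krt18 (2.75) and Krt8 (2.10) higher, Krt13 lower (-1.35), Muc5ac under 10 on all PN11 arrays and a median log2 difference of -0.00, and at PN56 3 of 6 were higher. The 5 endothelial markers summed to 7444 to 9198 in PN11 WT and 8407 to 11350 in PN11 Klf5CN, with none called, and to 5278 to 6418 in PN56 WT and 2688 to 4181 in PN56 Klf5CN, with Slc4a11 (-1.19) and Slc4a4 (-1.06) lower, and 3 of 10 keratocyte markers were higher and 1 lower in Klf5CN at PN56. Summed lens markers ran from 141.1 to 15130 over all arrays, with the genotypes overlapping. The highest sum was that of PN11 Klf5CN replicate 3. Leukocytes and epithelial cells both express immediate early genes, and the part of these cell types in the results below was not tested. In RNA of a whole tissue, fewer cells of a type and less RNA per cell cannot be told apart.

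Immediate early genes are transcribed within minutes of a stimulus, such as a growth factor, a wound or a stress, without new protein synthesis. AP-1 is a dimer of leucine zipper (bZIP) proteins, most often a Fos protein with a Jun protein, while Egr proteins bind GC-rich sites through zinc fingers. In the corneal epithelium both families are known as early responders to wounding. Fos and Egr1 transcription is classically switched on through serum response factor and its ternary complex partners downstream of MAP kinases, and Jun and Atf3 respond to the stress kinases.

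RefSeq windows of 300 bases, 250 before and 50 after a transcription start (GRCm38.p6), were found for 7 of the 10 factors and are shown for Jun, Atf3 and Egr2, which were higher in Klf5CN, and for Fos, which was higher at PN56 than at PN11. Capitals mark the letters of a CArG box (the serum response factor site), TGACGT (the core read by ATF and CREB proteins) or TGANTCA (the AP-1 site), searched on both strands. The windows were Fos at chr12:85473640-85473939 (plus strand), Jun at chr4:95052173-95052472 (minus strand), Atf3 at chr1:191183284-191183583 (minus strand) and Egr2 at chr10:67537619-67537918 (plus strand), the first of 3 overlapping Egr2 windows, and each is written 5′ to 3′ in the direction of transcription.
Fos: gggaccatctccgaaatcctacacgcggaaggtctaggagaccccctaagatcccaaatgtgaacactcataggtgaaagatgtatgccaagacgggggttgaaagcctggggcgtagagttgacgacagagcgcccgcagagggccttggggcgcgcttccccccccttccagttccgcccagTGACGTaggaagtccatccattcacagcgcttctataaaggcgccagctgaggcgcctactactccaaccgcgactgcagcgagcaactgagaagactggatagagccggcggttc
Jun: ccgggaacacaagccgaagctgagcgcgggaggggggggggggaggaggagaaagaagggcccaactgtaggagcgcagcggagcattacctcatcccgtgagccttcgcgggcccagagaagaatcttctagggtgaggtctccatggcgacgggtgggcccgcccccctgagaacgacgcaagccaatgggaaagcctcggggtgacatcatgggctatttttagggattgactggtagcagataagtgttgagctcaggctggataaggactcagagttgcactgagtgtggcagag
Atf3: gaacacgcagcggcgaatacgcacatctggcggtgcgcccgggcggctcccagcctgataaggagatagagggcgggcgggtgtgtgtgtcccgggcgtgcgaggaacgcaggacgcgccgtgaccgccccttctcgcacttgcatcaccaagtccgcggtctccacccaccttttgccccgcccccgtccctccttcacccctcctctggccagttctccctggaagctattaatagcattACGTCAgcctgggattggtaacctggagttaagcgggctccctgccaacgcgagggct
Egr2: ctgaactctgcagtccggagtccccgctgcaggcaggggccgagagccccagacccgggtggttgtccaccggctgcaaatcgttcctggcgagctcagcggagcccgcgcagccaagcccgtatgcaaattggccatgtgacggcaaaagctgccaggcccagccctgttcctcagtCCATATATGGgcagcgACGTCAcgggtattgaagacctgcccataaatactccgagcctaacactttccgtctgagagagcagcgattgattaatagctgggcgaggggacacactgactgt
The Fos window held TGACGT from position -66, the Atf3 window from -8 and the Egr2 window from -56, counted from the start. A CArG box stood in the Egr2 window from -72. Egr2 had 5 windows in all, of which that starting at 67535249 held neither motif and that starting at 67537316 a CArG box without TGACGT. The Jun window held no exact match of the 3 patterns, though it holds tgacatca, which none of them fits. Near matches, and sites more than 250 bases before a start, were not searched. Among all 32851 windows of this length, 1.63% held a CArG box, 7.51% TGACGT and 7.81% TGANTCA. The Kruppel-like motif CACCC matched 3 times in Jun, 3 times in Atf3, once in Egr2 and at no position in Fos, and 57.5% of all windows held it. GGGCGG, the GC box, matched 5 times in Atf3 and once each in Fos and Jun (35.7% of all windows). GCGNGGGCG, the Egr site, whose matches may overlap those of GGGCGG, was in none of the 4 windows shown and in 5.55% of all windows. These matches describe letters only.

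Loss of Klf5 went with higher signals of several of the factors at both ages. At PN11, Atf3, Egr2 and Egr3 rose in Klf5CN corneas by 3.41-, 4.41- and 3.27-fold. At PN56, Jun, Atf3 and Egr2 rose by 2.23-, 2.25- and 3.26-fold. At PN11, 3 of 10 factors were thus higher and 0 lower, where 3.8% of 13660 tested genes were higher and 1.48% lower. At PN56, 3 of 10 were higher and 0 lower, beside 7.1% and 1.63% of all tested genes. The median log2 difference of the 10 factors was 0.69 at PN11 and 0.73 at PN56, and the median over all tested genes was -0.00 and 0.02. Without the 2 arrays of high Actb ratio the same 3 factors passed at each age. The plot of signal by array shows all 10 factors.

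**Figure D1:**
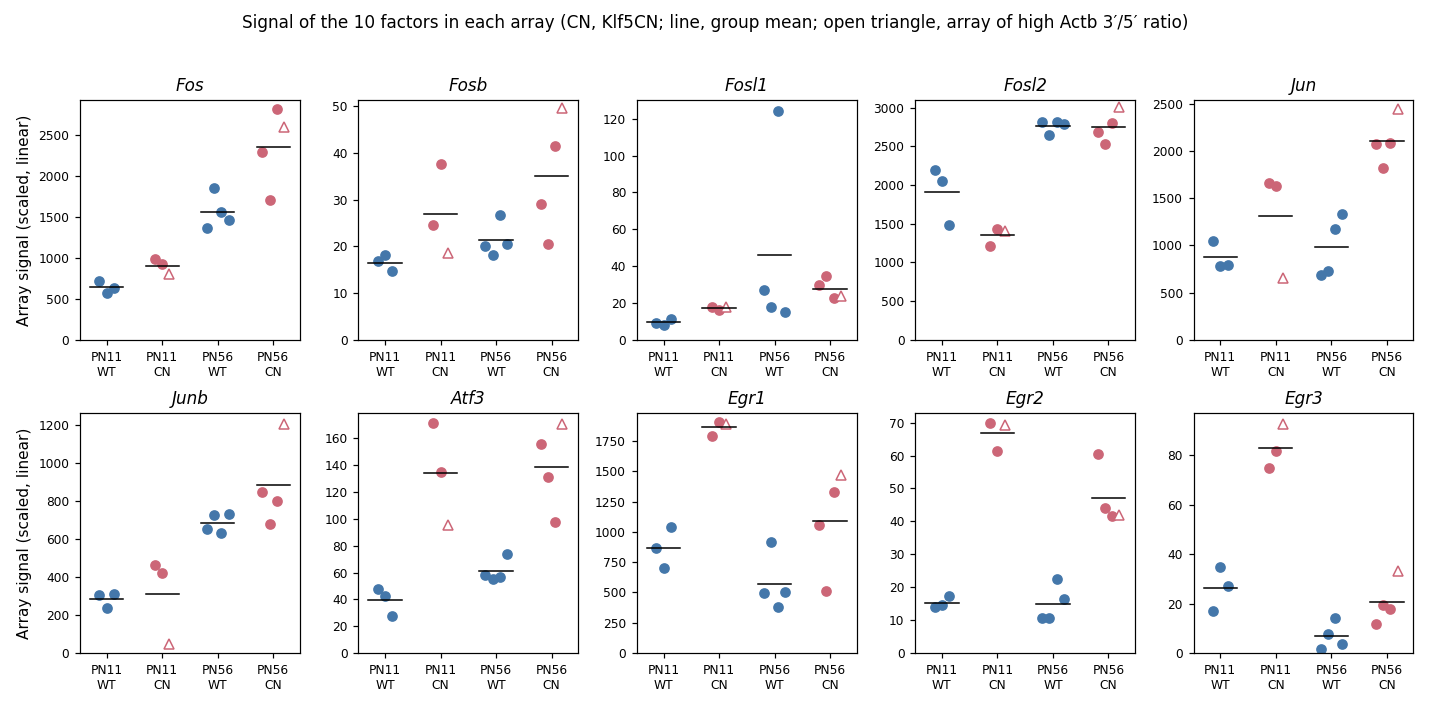
Signal of each factor's brightest probe set (linear scale, vertical axis) in every array of the 4 groups (horizontal axis; CN, Klf5CN), with the group mean as a line and the 2 arrays of high Actb 3′/5′ ratio as open triangles. Atf3 and Egr2 in Klf5CN lie above all WT arrays of the same age, Fos is higher at PN56 than at PN11, and Egr3 is lower.

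Fos, the founding AP-1 partner of Jun, had signals of 716.7, 567.3 and 638.5 in PN11 WT and 983.9, 924.8 and 807.8 in PN11 Klf5CN. At PN56 Fos gave 1366.6, 1860.6, 1565.1 and 1467.8 in WT and 2291.9, 1705.2, 2817.5 and 2594.8 in Klf5CN. All PN11 Klf5CN arrays lay above all PN11 WT arrays, whereas at PN56 Klf5CN replicate 2 lay within the WT range. The log2 difference of Fos was 0.50 at PN11 (adjusted p = 0.11, SE 0.18) and 0.57 at PN56 (adjusted p = 0.020, SE 0.15), so the second passed the p threshold but not the 2-fold minimum.

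Fosb, whose truncated form is known to persist after repeated stimulation in the brain, was dim. Its signals were 16.8, 18.1 and 14.7 in PN11 WT, 24.6, 37.7 and 18.7 in PN11 Klf5CN, 20.1, 18.1, 26.7 and 20.6 in PN56 WT, and 29.1, 20.5, 41.5 and 49.6 in PN56 Klf5CN. The groups did not overlap at PN11 and overlapped at PN56. The log2 difference was 0.65 at both ages (SE 0.33 and 0.28, adjusted p = 0.29 and 0.14), and 0.89 and 0.46 without the 2 arrays of high Actb ratio (adjusted p = 0.11 and 0.26).

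Fosl1, a Fra protein induced with some delay and known for epithelial migration, lay near the lower end of the scale. It read 9.0, 8.0 and 11.3 in PN11 WT and 18, 16.1 and 17.7 in PN11 Klf5CN, and was called Present on 0 of these 6 arrays. At PN56 Fosl1 read 27.3, 17.9, 124.3 and 15.0 in WT and 29.6, 34.4, 22.8 and 23.6 in Klf5CN. A single PN56 WT array, replicate 3, stood far above all others. That array also had the highest leukocyte (1668) and neutrophil (1025) sums of its group. The other Fosl1 probe set, too dim to be tested, was under 10 on 13 of 14 arrays and read 41.2 on the same one. Fosl1 differed by 0.73 at PN11 (adjusted p = 0.51, SE 0.55) and by -0.18 at PN56 (adjusted p = 0.84, SE 0.48), or by 0.49 at PN56 without that array (adjusted p = 0.22).

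Fosl2, the other Fra protein, was lower at PN11 in the signal of its brighter probe set, without passing. This set gave 2192.4, 2052.5 and 1480.6 in PN11 WT against 1216.0, 1431.2 and 1402.9 in PN11 Klf5CN, with no overlap. The log2 difference was -0.48 (SE 0.14, adjusted p = 0.053), and -0.51 without the 2 arrays of high Actb ratio (adjusted p = 0.042), under 2-fold. The dimmer Fosl2 probe set overlapped between the genotypes, with 48.1, 45.8 and 51.8 against 53.9, 45.8 and 42.6 (log2 difference -0.04, adjusted p = 0.95). At PN56 the brighter set gave 2814.6, 2649.4, 2809.9 and 2787.3 in WT and 2681.0, 2534.0, 2797.4 and 3009.5 in Klf5CN. These arrays overlapped, and the difference was -0.01 (SE 0.12, adjusted p = 0.98).

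Jun, the partner that can also pair with itself, was read by a pair of probe sets that ranked the groups alike. The brighter gave 1049.6, 781.4 and 796.3 in PN11 WT and 1665.6, 1631.3 and 652.0 in PN11 Klf5CN. The low array was replicate 3, the one with the highest Actb ratio, and the other PN11 Klf5CN arrays lay above all WT arrays. At PN56 Jun read 683.6, 729.5, 1176.4 and 1329.9 in WT and 2071.5, 1815.1, 2080.0 and 2449.8 in Klf5CN. No Klf5CN array reached down to the WT range at that age. The log2 difference at PN56 was 1.15 (SE 0.28, adjusted p = 0.012), and 1.08 without both arrays of high Actb ratio (adjusted p = 0.0040). Its 2-fold call was lost when array medians were subtracted (0.93, adjusted p = 0.020). At PN11 the log2 difference was 0.48 (SE 0.32, adjusted p = 0.44) and became 0.93 without the 2 arrays (adjusted p = 0.036), still short of 2-fold.

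The dimmer Jun probe set gave 434.0, 419.2 and 399.6 in PN11 WT and 747.3, 835.8 and 447.9 in PN11 Klf5CN. At PN56 it gave 455.6, 473.6, 517.8 and 561.7 in WT against 1115.4, 1136.2, 1147.2 and 1282.7 in Klf5CN. On this probe set the genotypes did not overlap at either age. Its log2 difference was 0.65 at PN11 (SE 0.18, adjusted p = 0.047), under 2-fold, and 1.22 at PN56 (SE 0.16, adjusted p = 2.1e-04).

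Junb, a Jun protein that often restrains Jun at shared targets, had signals of 304.7, 234.2 and 309.3 in PN11 WT and 460.4, 419.7 and 45.2 in PN11 Klf5CN. The value of 45.2 came from replicate 3 and was the lowest of all 14 arrays, while the other Klf5CN arrays exceeded every WT array. With all arrays the log2 difference was -0.45 (SE 0.60, adjusted p = 0.75). Without replicate 3 it was 0.65 (adjusted p = 0.078), and without both arrays of high ratio 0.65 (adjusted p = 0.014), so the direction for Junb at PN11 turned on that array. At PN56 Junb read 652.7, 725.5, 631.6 and 728.8 in WT and 848.5, 676.0, 797.9 and 1202.6 in Klf5CN. The arrays overlapped at replicate 2 of Klf5CN, and the difference was 0.33 (SE 0.52, adjusted p = 0.71), or 0.17 without the 2 arrays (adjusted p = 0.34).

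**Figure D2:**
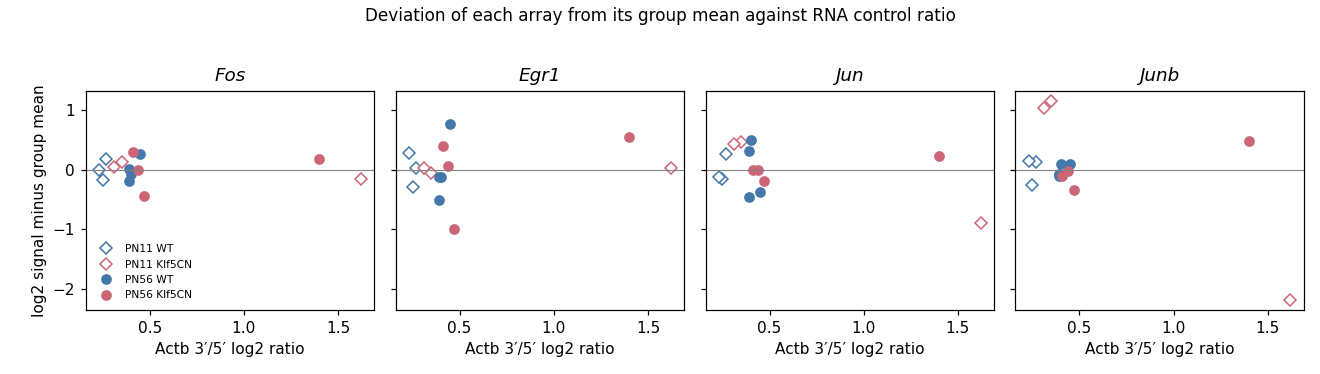
Each array's log2 signal minus its group mean (vertical axis) against the log2 ratio of the 3′ to the 5′ Actb control (horizontal axis) for Fos, Egr1, Jun and Junb; open diamonds are PN11 and filled circles PN56, blue WT and red Klf5CN. The array at a ratio of 1.62 is the lowest of all 14 arrays for Jun and for Junb but lies near its group mean for Fos and Egr1.

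Atf3, a bZIP protein of the stress response that pairs with Jun proteins, separated the genotypes at both ages. It read 47.9, 42.4 and 27.5 in PN11 WT and 171.5, 135.2 and 95.4 in PN11 Klf5CN. At PN56 it read 58.3, 55.0, 56.3 and 74.1 in WT and 155.9, 131.5, 97.4 and 170.7 in Klf5CN. No arrays of the 2 genotypes overlapped at either age. Atf3 rose by 1.77 at PN11 (adjusted p = 0.0017, SE 0.27) and by 1.17 at PN56 (adjusted p = 0.0040, SE 0.24), and by 1.99 and 1.06 without the 2 arrays of high ratio (adjusted p = 0.0013 and 0.0066). The PN56 value slipped under 2-fold with array medians subtracted (0.94, adjusted p = 0.0073) and on the scale of log2 of signal plus 16 (0.99, adjusted p = 0.0032).

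Egr1, a zinc finger activator of growth factor and matrix genes, gave 866.8, 698.5 and 1039.8 in PN11 WT and 1794.2, 1904.3 and 1894.9 in PN11 Klf5CN. The PN11 groups lay well apart, with a mean signal of 868.4 ± 171 in WT and 1864 ± 61.0 in Klf5CN (SD, n = 3). The log2 difference was 1.12 (SE 0.35, adjusted p = 0.072), which did not pass. At PN56 Egr1 read 496.1, 915.8, 380.8 and 501.0 in WT and 1058.1, 509.1, 1333.1 and 1473.4 in Klf5CN. WT replicate 2 was high and Klf5CN replicate 2 low, so that the groups overlapped. The difference was 0.90 (SE 0.30, adjusted p = 0.056), and leaving out the former array gave 1.15 (adjusted p = 0.020) and the latter 1.23 (adjusted p = 0.0053). It was smaller without the 2 arrays of high Actb ratio (0.72, adjusted p = 0.14) and without PN56 WT replicate 3 (0.73, adjusted p = 0.14). At PN11 the call also depended on which arrays set the shared spread, since Egr1 passed at 1.12 in a fit of the PN11 groups alone (adjusted p = 0.014).

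Egr2, which in other tissues governs myelination by Schwann cells and is also made by stimulated lymphocytes and macrophages, showed the largest difference of the 10 factors at both ages with the floor of 10, though not with a floor of 32 or on log2 of signal plus 16. It read 13.9, 14.5 and 17.3 in PN11 WT and 69.9, 61.5 and 69.4 in PN11 Klf5CN. At PN56 Egr2 read 10.5, 10.7, 22.4 and 16.5 in WT and 60.5, 44.0, 41.7 and 42.0 in Klf5CN. Every Klf5CN array was above every WT array of its age. Egr2 rose by 2.14 at PN11 (adjusted p = 6.7e-04, SE 0.28) and by 1.70 at PN56 (adjusted p = 4.3e-04, SE 0.25). The other Egr2 probe set also passed, with 9.5, 18.2 and 12 against 47.1, 56.9 and 25.1 at PN11 (1.65, SE 0.35, adjusted p = 0.012) and 9.7, 6.9, 16.6 and 12.5 against 62.5, 55.2, 41.8 and 32 at PN56 (1.95, SE 0.31, adjusted p = 8.0e-04). Since WT signals sat close to 10, the size of the fold depended on the floor, and with signals under 32 set to 32 it was 1.06 at PN11 (adjusted p = 4.7e-04), below Atf3 at 1.70 and Egr3 at 1.33, and 0.54 at PN56 (adjusted p = 0.0072), below Atf3 at 1.17 and Jun at 1.15. On log2 of signal plus 16 Egr2 was at 1.41 and 1.03, with Atf3 at 1.43 at PN11 and Jun at 1.14 at PN56.

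Egr3, a relative induced alongside Egr2 in lymphocytes, gave 17.2, 34.8 and 27.1 in PN11 WT and 74.8, 81.6 and 92.5 in PN11 Klf5CN, with a wide gap between the groups. The increase was 1.71 (SE 0.34, adjusted p = 0.0087), a call lost without PN11 WT replicate 1 (1.43, adjusted p = 0.056). At PN56 Egr3 lay mostly under the floor in WT, at 1.8, 7.7, 14.2 and 3.8, and read 11.8, 19.5, 17.7 and 33.3 in Klf5CN. Only WT replicate 3 was above 10, and it exceeded the lowest Klf5CN array. The PN56 difference of 0.81 did not pass (SE 0.30, adjusted p = 0.080), and was 0.55 without the 2 arrays of high ratio (adjusted p = 0.19). The second Egr3 probe set was too dim to be tested, with signals from 4.4 to 22.8.

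**Figure D3:**
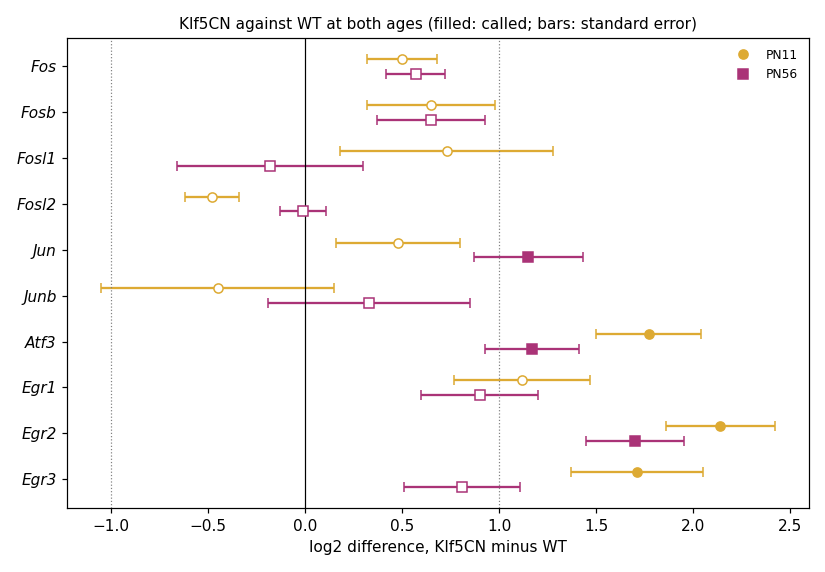
Log2 difference of Klf5CN minus WT (horizontal axis) for each factor at PN11 (circles) and PN56 (squares), with the standard error as a bar, filled where the gene counted as changed, and dotted lines at 2-fold. With the floor of 10 drawn here Egr2 has the largest difference at both ages, which it loses with a floor of 32 or on log2 of signal plus 16, and Fosl2 at PN11 and PN56, Junb at PN11 and Fosl1 at PN56 lie on the negative side.

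Whether the effect of the deletion differed between the ages was tested directly. For none of the 10 factors did it pass (0 of 10, where 0.564% of all tested genes did), and 1 factor, Fosl2, had an unadjusted p under 0.05 (difference of effects 0.48, adjusted p = 0.36). The median difference of effects was -0.11 over the factors and 0.04 over all tested genes. Without the 2 arrays of high Actb ratio 0 of 10 passed as well, but some values moved. The largest moves were Junb from 0.78 to -0.47, Jun from 0.67 to 0.15, Fosb from 0.00 to -0.42 and Atf3 from -0.60 to -0.94. The median of the factors was not taken without these arrays. The value of Fosl1, -0.91 (SE 0.73, adjusted p = 0.72), rested on PN56 WT replicate 3 and was -0.24 without it (adjusted p = 0.87). For Egr3 it was -0.89 (SE 0.45, adjusted p = 0.52). With signals under 32 set to 32 the Egr3 value became -1.31 (adjusted p = 1.8e-05). At that floor every PN56 array but that of 33.3, and every PN11 WT array but that of 34.8, was set to 32. The PN56 difference was then 0.01 (SE 0.05), so the small p-value rests on a spread that the floor itself narrowed. For Egr3 the outcome thus depended on how signals near background were treated.

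Between PN11 and PN56 the factors diverged within each genotype. In WT, Fos and Fosl1 rose and Egr3 fell. In Klf5CN, Fos, Fosl2 and Junb rose and Egr3 fell. The counts were 2 higher and 1 lower of 10 in WT, where 4.37% of tested genes were higher and 15.6% lower, and 3 higher and 1 lower in Klf5CN, where 4.8% were higher and 13.4% lower. Without the 2 arrays of high Actb ratio, Junb joined in WT (3 higher, 1 lower), and in Klf5CN Junb was lost and Egr1 gained (2 higher, 2 lower). The median log2 difference was 0.46 in WT and 0.51 in Klf5CN for the factors, and -0.11 and -0.07 for all tested genes. Over the same interval 8 of 10 keratocyte markers were lower at PN56 in both genotypes. Their summed signal went from between 49550 and 55690 to between 7590 and 10990 in WT. For Klf5CN it went from between 46060 and 53970 to between 6601 and 33730. The 33730 was that of PN56 Klf5CN replicate 4, of high Actb ratio, and the next highest of that group was 20860. In WT, 8 of 12 leukocyte markers were lower and 1 higher, and 6 of 6 blood vessel markers were lower. Klf5CN had 3 of 12 leukocyte markers lower and 1 higher, and 5 of 6 blood vessel markers lower. The part of this change in tissue makeup in the results was not tested.

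Fos ordered the 4 groups as PN11 WT, PN11 Klf5CN, PN56 WT and PN56 Klf5CN, with means of 640.8 ± 74.7, 905.5 ± 89.6, 1565 ± 213 and 2352 ± 482 (SD, n = 3, 3, 4 and 4), and only the last neighbours overlapped. It rose with age by 1.29 in WT (SE 0.16, adjusted p = 2.3e-05) and 1.36 in Klf5CN (SE 0.16, adjusted p = 1.9e-05). Fosl2 was higher at PN56 on both probe sets, without overlap. By the brighter set the log2 difference was 0.55 in WT (SE 0.13, adjusted p = 0.0031), short of 2-fold, and 1.03 in Klf5CN (SE 0.13, adjusted p = 2.6e-05). The dimmer set, at 101.9, 111.0, 145.4 and 109.6 in PN56 WT and 124.6, 116.2, 108.7 and 167.5 in PN56 Klf5CN, rose by 1.26 and 1.43 (adjusted p = 8.4e-05 and 3.5e-05). The 2-fold call of the brighter set in Klf5CN was lost at 0.99 without PN56 Klf5CN replicate 4 (adjusted p = 4.4e-05) and at 0.96 without PN11 Klf5CN replicate 1 (adjusted p = 2.7e-04). The Fosl1 rise in WT was 1.57 (SE 0.52, adjusted p = 0.024), and 0.90 without PN56 WT replicate 3 (adjusted p = 0.014), under 2-fold. Without PN11 WT replicate 1, 2 or 3 the size hardly moved (1.54, 1.54 and 1.63) but the call was lost (adjusted p = 0.065, 0.066 and 0.054). It was also lost with a floor of 32 (0.49, adjusted p = 0.40) and on log2 of signal plus 16 (0.98, adjusted p = 0.044). The same held with no filter (adjusted p = 0.070) and with the compared groups alone (adjusted p = 0.075). This Fosl1 probe set was called Present on 0 of 3 PN11 WT arrays and 1 of 4 PN56 WT arrays. Fosb differed by 0.36 with age in either genotype (adjusted p = 0.37 in each), and by -0.06 in Klf5CN without the 2 arrays of high ratio (adjusted p = 0.89).

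Junb signals at PN56 lay above all PN11 arrays of their genotype. In WT, where all arrays had a low Actb ratio, the difference was 1.28 (SE 0.56, adjusted p = 0.079). The spread behind that SE is shared with PN11 Klf5CN replicate 3, and without this array the same 1.28 passed (adjusted p = 3.2e-05). In Klf5CN the rise was 2.06 (SE 0.56, adjusted p = 0.0088) with that array and 0.97 without it (adjusted p = 0.0013), under 2-fold. Jun differed by 0.12 with age in WT (adjusted p = 0.79) and by 0.79 in Klf5CN (adjusted p = 0.048), or 0.27 without the 2 arrays (adjusted p = 0.41). For Atf3 the values were 0.66 in WT (SE 0.25, adjusted p = 0.048), under 2-fold, and 0.06 in Klf5CN (adjusted p = 0.87).

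Among the Egr genes, Egr3 fell by 1.21 with age in WT (SE 0.32, adjusted p = 0.0070) and by 2.11 in Klf5CN (SE 0.32, adjusted p = 1.4e-04). The WT value was limited by the floor, as 3 of 4 PN56 WT arrays were under 10, and its call was lost without PN11 WT replicate 2 (-0.98, adjusted p = 0.045), with a floor of 32 (-0.04, adjusted p = 0.70) and on log2 of signal plus 16 (-0.90, adjusted p = 0.0042). The Egr1 difference was also negative and did not pass, at -0.66 in WT (SE 0.32, adjusted p = 0.12) and -0.88 in Klf5CN (SE 0.32, adjusted p = 0.042). Without both arrays of high ratio Egr1 passed in Klf5CN at -1.05 (adjusted p = 0.040). Egr2 differed by -0.09 in WT (adjusted p = 0.82) and -0.52 in Klf5CN (adjusted p = 0.13). Fos and Egr1, which share their classical route of induction, thus had age differences of opposite sign, of which only that of Fos passed.

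**Figure D4:**
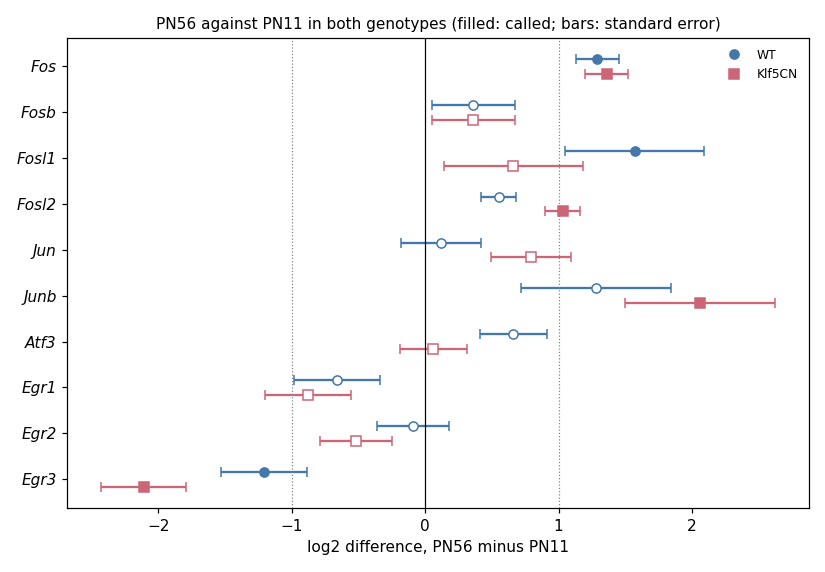
Log2 difference of PN56 minus PN11 (horizontal axis) for each factor in WT (circles) and Klf5CN (squares), with the standard error as a bar, filled where the gene counted as changed, and dotted lines at 2-fold. Fos is at 1.29 in WT and 1.36 in Klf5CN, and Egr3 is at -1.21 in WT and -2.11 in Klf5CN.

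Within groups, some factors moved together from mouse to mouse. Fos and Egr1 had a correlation of 0.81 between their deviations from the group means over 14 arrays, and 0.83 over the 12 arrays of low Actb ratio. Jun and Junb had 0.79 over 14 arrays but 0.25 over those 12, and Jun and Atf3 0.63 and 0.38. Egr2 and Egr3 had 0.02, although both were higher in Klf5CN at PN11. These pairs were picked from all pairs of the 10 factors. Others also shifted over the 12 arrays: Junb and Egr1 went from 0.16 to 0.69, Jun and Egr2 from 0.35 to 0.68, and Junb and Egr3 from -0.10 to -0.76. PN56 Klf5CN replicate 2 was the lowest array of its group for 6 of 10 factors (Egr1, Fos, Fosb, Fosl2, Jun and Junb), and replicate 4, of high Actb ratio, was the highest for 7. PN11 Klf5CN replicate 3 was lowest for 5 (Atf3, Fos, Fosb, Jun and Junb). These correlations describe arrays that share groups and scaling.

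The genes whose 14 values ran most like those of Fos were Zfp36, an mRNA decay factor that is itself an immediate early gene (r = 0.98), Snhg3 (0.96), the cytokine Il1a (0.96) and Bcl2l15 (0.96). For Jun they were Arc (0.96), Tap2 (0.94), Septin9 (0.92) and the stress kinase Plk3 (0.92). For Atf3 they were the epithelial serine protease St14 (0.98), the VEGF receptor Flt1 (0.96), Glis3 (0.95) and the mucosal chemokine Cxcl17 (0.94), and for Egr1 Wdr90 (0.91), the heme oxygenase Hmox1 (0.90), Rspo1 (0.86) and Ada (0.86). By deviations from group means, none of these 16 genes stayed in the lists. There the nearest to Fos were Stn1 (0.89), Ppp1r15a, a stress-induced phosphatase subunit (0.86), Spaca1 (0.86) and Nrarp (0.84), and the nearest to Egr1, Atf3 and Jun were Mocs3 (0.90), Ccdc28a (0.93) and Cbr2 (0.96).

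Of the other leucine zipper (bZIP) genes followed, 3 of 18 rose in Klf5CN at PN11 and 5 of 18 at PN56, with 0 lower at either age. Over all tested genes 3.8% rose at PN11 and 7.1% at PN56. Nfil3, a bZIP repressor, rose by 2.04 at PN11 (adjusted p = 0.039, SE 0.54) and 2.35 at PN56 (adjusted p = 0.0039, SE 0.47). Batf3 (1.54) and Maf (1.03) rose at PN11. Batf (1.94), Cebpd (1.79) and Cebpb (1.14) rose at PN56, the Batf genes being known mainly from leukocytes. Of 33 other immediate early genes, 2 rose at PN11 and 5 at PN56. The orphan nuclear receptor Nr4a3 did so at both ages (2.01, adjusted p = 0.023, and 1.56, adjusted p = 0.021), the GTPase Gem at PN11 (1.34), and Nr4a1 (2.92), Arc (2.16) and the cyclooxygenase Ptgs2 (1.75) at PN56. The median over these 33 genes was 0.32 and 0.15.

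Upstream, 1 of 20 MAP kinase and serum response genes was higher at PN11, Map3k8 (1.43, SE 0.25, adjusted p = 0.0040), and 0 were at PN56. Of all tested genes 3.8% were higher at PN11 and 7.1% at PN56, so counts of 0 or 1 in the lists of this paragraph were near those shares. Map3k8 was the only one of the 20 whose effect differed between ages (-1.75, SE 0.33, adjusted p = 0.035). Of 15 phosphatases, Sprouty proteins and Nab corepressors that limit the pathway, Dusp10 (1.34) and Dusp5 (1.07) rose at PN11 and Dusp4 (2.53) at PN56. Fhl2, a coactivator of Jun and Fos, was the only riser of 11 cofactors and rose at both ages (1.78 and 1.63). The heat shock genes, chaperones induced by cell stress, gave 0 higher of 12 at either age, and Hspa1a fell by 1.24 at PN11 (SE 0.18, adjusted p = 0.0014).

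Of the genes known as AP-1 targets, 9 of 23 rose at PN11 and 11 of 23 at PN56, with 0 lower, and the median log2 difference was 1.53 and 1.17. The shares of all tested genes that rose were 3.8% at PN11 and 7.1% at PN56. This list, like the others, was chosen with earlier results of these data known, so its counts and medians do not test AP-1 activity. The largest at PN11 were the neutrophil chemokine Cxcl2 (4.02), the wound keratin Krt16 (3.94), the envelope protein Sprr1a (3.82) and Cxcl1 (2.88). At PN56 they were the matrix proteases Mmp3 (3.31) and Mmp13 (3.18), Cxcl2 (2.90) and the protease inhibitor Timp1 (2.73). The summed signal of the 23 genes ran from 6853 to 7264 in PN11 WT and 14610 to 17200 in PN11 Klf5CN, and from 8638 to 18390 and 17290 to 27150 at PN56, where PN56 WT replicate 3 overlapped Klf5CN. Several of these genes are also made by leukocytes, whose marker sums differed in the same groups.

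With age in WT, 8 of the 33 other immediate early genes were higher and 3 lower, where 4.37% and 15.6% of all tested genes were. Among them were Hbegf, a ligand of the EGF receptor (1.67, adjusted p = 6.2e-04), Nr4a1 (-2.31, adjusted p = 4.9e-04), Klf2 (-2.18, adjusted p = 9.3e-05) and Ptgs2 (-1.66, adjusted p = 0.016). In Klf5CN 4 were higher and 1 lower (4.8% and 13.4% of all tested genes), with Csrnp1 at 1.78, Pim1 at 1.28, Zfp36 at 1.07 and Klf2 at -1.64. Dusp5, which removes phosphate from nuclear ERK, rose by 3.44 in WT (SE 0.25, adjusted p = 1.6e-07) and 2.62 in Klf5CN (SE 0.25, adjusted p = 2.9e-06). Of the 20 kinase and serum response genes Map3k8 rose in WT (2.28) and Elk1, a partner of serum response factor, fell by 1.85. Of the 23 targets 5 were higher and 3 lower in WT, and 4 higher and 3 lower in Klf5CN, the lower counts being near the shares over all genes. The other bZIP genes gave 1 higher (Batf2, 1.33) and 1 lower (Batf, -1.43) of 18 in WT. In Klf5CN they gave 0 higher and 1 lower (Batf3, -1.08). These bZIP counts were near or below the shares over all genes.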

How the data were processed

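RNA from a mouse's pair of corneas was combined, labelled by in vitro transcription and hybridised to Affymetrix mouse expression arrays covering the whole genome. The authors computed the deposited intensity values with GCOS 1.4 at its defaults and scaled each array to a target of 150 on the 2% trimmed mean. A further deposited set of columns, of another unit, counts the arrays of a group on which a probe set was called Present. A set of 3 columns counts valid pairwise changes between groups, the authors' own comparisons, and was not used. The 2 deposited tables held equal values (631414 of 631414), and 0 columns of sample values were left out.

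Of 45101 probe sets, 34958 carried 1 symbol in the platform annotation, 932 several and 9211 none. Signals under 10 (29.5% of values) were set to 10 and log2 was taken. Probe sets over 20 in at least 3 arrays were tested, 29416 in all and 13 of the 15 of the factors, so that each of the 10 factors and 13660 genes had at least 1. A single limma fit (version 3.58.1, R 4.3.3, eBayes with trend) held the 4 groups, with p-values adjusted by Benjamini-Hochberg over all tested probe sets. The difference of the effects between ages was called on the adjusted p alone. Replicates are separate mice, and correlations between arrays of a group ran from 0.96 to 0.989, so no array was a copy of another. The number of arrays limits the precision. Python 3.11.15, pandas 2.3.3 and numpy 2.4.6 handled the tables, and the fit was tested on simulated data. Motifs were searched in 32851 RefSeq promoter windows, of which 11 belonged to 7 of the factors, 5 of them to Egr2.

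Members and gene lists were chosen with earlier results of these data known. All 10 factors are named with every probe set. Of each pathway list up to 4 called genes per comparison were named, those of largest difference, or the 2 largest where none was called. Genes most like Fos, Egr1, Atf3 and Jun were the 4 of highest Pearson r. Marker sums add signals of the tested genes of a list after the floor of 10. Same-numbered WT and Klf5CN arrays had correlations of deviations between -0.20 and 0.09, so the replicate numbers were not taken to pair samples. Alternatives changed the scaling, floor, filter, probe set, fold minimum and test, and left out each array in turn. They also changed the fit (robust, compared groups only, replicate block, Actb ratio as a covariate). The other test, a rank rule, asked for mean signals more than 2-fold apart and no overlap of arrays. It was modelled on the study's fold and rank criteria, but was stricter on ranks at PN56 and left out the Present and pairwise criteria. The set without both arrays of high Actb ratio was added after the data were seen.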

Additional observations from a re-analysis of the deposited data

Results flagged for a closer look

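In 26 groups of 4 arrays, 1 for each tested probe set of a factor and PN56 genotype, 3 held an array whose gap to its nearest neighbour was above Dixon's 95% critical value, taken as a share of the group's range. Chance flags about 1 in 20 such groups. For Fosl2, PN56 WT replicate 2 was lowest at log2 11.37, in a group whose whole range was narrow (signals 2649.4 to 2814.6). For Egr2, PN56 Klf5CN replicate 1 was highest at log2 5.92 (signal 60.5, the others 41.7 to 44.0). For Egr3, PN56 WT replicate 3 was highest at log2 3.83 (signal 14.2), because the other 3 arrays of the group were at the floor of 10.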

How the results depend on the processing

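Under 29 alternatives, 28 of them planned, counts of changed factors mostly held. With array medians subtracted, which shifted all log2 differences at PN56 by -0.23, 1 factor (Egr2) in place of 3 was changed at PN56, and over all genes 61.3% of the changes were increases in place of 81.4%. In WT with age, 3 became 1 with signals under 32 set to 32 or with log2 of signal plus 16, and 5 with no minimum fold. Leaving out 1 array gave 1 to 4 there, the lowest without PN11 WT replicate 2. The difference of effects gave 1 (Egr3) in place of 0 with the floor of 32. The replicate block gave 3, 3, 3 and 4 changed factors, and 0 for the difference of effects, as without it. The cause of these shifts was not tested beyond what the settings themselves change.

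Signs turned only for differences that had not passed. Junb at PN11 was 0.22 with the Actb ratio as a covariate and 0.65 without the 2 arrays of high ratio. It was 0.13 as the log2 ratio of mean signals that the rank rule used, and -1.03 to 0.65 with 1 array left out. Fosl1 at PN56 ran from -0.53 to 0.49 with 1 array left out. Fosl2 at PN56 was 0.14 with the probe set of smallest p and 0.06 with the mean of probe sets, and -0.05 to 0.03 with 1 array left out. With age in WT, Jun was -0.01 under the replicate block and -0.05 to 0.27 with 1 array left out, and Egr2 ran from -0.30 to 0.06. With age in Klf5CN, Fosb was -0.06 without the 2 arrays, and Atf3 was -0.27 without them, -0.03 with array medians subtracted, -0.04 under the replicate block and -0.16 to 0.26 with 1 array left out. With the floor of 32, Fosl1 at PN11 and Fosb and Egr2 with age in WT had no value left.

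The floor of 10 altered Fosl1 and Egr3 signals in WT, and those of the dimmer Egr2 probe set, so their folds are compressed by it. With 3 arrays a group no exact rank test can pass at PN11, and arrays limit the precision throughout.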
